A study of Mus musculus with 10 samples.

Results

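The collagen genes were described in WT31, an NRAS-mutant mouse melanoma line, and in its subline WT31_P5IV. Members were all genes whose symbol in the GENCODE M21 annotation reads Col, a type number, a and a chain number, which gave 44 of the 55385 gene identifiers in the tables, spread over 27 collagen types. WT31 came from mice that carry mutant Nras behind the tyrosinase promoter, which is active in pigment cells, and that lack INK4a, so that both groups share these alleles. WT31_P5IV was derived by 5 cycles in which WT31 cells were injected into a tail vein, recovered from liver metastases and expanded in culture. It is a single subline, so a difference between the groups is one between these 2 cell populations and cannot be told apart from what this derivation picked or changed. RNA came from untreated, sub-confluent cells cultured in RPMI medium with 10% fetal calf serum, 5 libraries of each line, which the labels call biological replicates without saying whether they were separate cultures, so that p-values measure the spread between these libraries.

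Collagens are extracellular proteins of 3 chains wound into a triple helix, and the chains of a trimer are often products of different genes. Fibrillar collagens form the cross-banded fibrils of connective tissue, fibril-associated collagens sit on their surface, and type IV collagen forms the sheet-like network of basement membranes, with which a tumor cell comes into contact when it leaves or enters a vessel. Melanoma cells make collagen themselves and bind it through integrins and other receptors. mRNA levels say nothing of how much protein was secreted.

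Each library held between 24255389 and 25750639 estimated counts. All 13 melanocyte lineage genes examined, such as Mitf, Sox10 and Dct, were above the detection filter, with summed levels of 19397 to 20672 CPM, counts scaled to library size, in WT31 and 24791 to 28620 CPM in WT31_P5IV. Of the 13, 6 were higher, 4 lower and 3 without a call at an adjusted p under 0.05 (median log2 fold change 0.02). The share called, 76.9%, was near the 68.5% of all tested genes, of which 34.6% were higher and 33.9% lower. Dct (0.80) and Pmel (1.22) were among the higher and Tyrp1 (-0.96) and Oca2 (-0.78) among the lower genes. Of 14 marker genes of fibroblasts and stellate cells, cells which make collagen in liver, 6 were tested, and the summed level of all 14 was 328.7 to 351.9 CPM in WT31 and 420.0 to 478.2 CPM in WT31_P5IV, most of it Fbln1. The mesenchymal transcription factor Hand2 was at 0 in every library, the fibroblast proteoglycan Lum reached at most 3 counts and Dcn at most 8, while Acta2, the smooth muscle actin of activated stellate cells, was at 2 to 12 counts in WT31 and 15 to 21 in WT31_P5IV. Nras was at 159 and 123 CPM and Cdkn2a, the INK4a locus, at 2.94 and 3.13 CPM in WT31 and WT31_P5IV, values per gene that do not show the alleles. The summed level of 10 hepatocyte and cholangiocyte markers stayed under 1.69 CPM, and Alb, albumin, had no count in WT31 and at most 9 in WT31_P5IV. Ttr, the only one tested, had 6 to 14 and 8 to 15 counts and no call. Of 8 endothelial markers none was tested, and Cdh5 and Lyve1 were at 0 in all libraries. Pecam1 had 1 to 8 counts in WT31 and 2 to 8 in WT31_P5IV, Stab2 2 to 5 and 0 to 4, and Vwf 1 to 6 and 3 to 10. Among 10 leukocyte markers, Ptprc had at most 2 counts, Clec4f and Cd14 were at 0, and Cd68 (1.37 CPM in WT31, 3.73 CPM in WT31_P5IV) and Lyz2 (4.33 CPM, 1.08 CPM) were detected. Cd79a, not tested, had 2 to 6 counts in WT31 and 5 to 21 in WT31_P5IV, and Csf1r, not tested, at most 5. In bulk libraries fewer cells with a transcript and less of it per cell cannot be told apart.

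The subline had higher mRNA of 9 of the 14 fibrillar and fibril-associated collagens that could be tested, whereas Col5a1, Col11a1 and Col12a1 were lower and Col27a1 and Col9a2 had no call. The 2 main type IV chains were much lower. Of the 44 members, 26 from 19 types had enough counts for the test. By edgeR's quasi-likelihood test, with p-values adjusted by Benjamini and Hochberg over all 13620 genes tested, 10 were higher in WT31_P5IV, 11 were lower and 5 had an adjusted p of 0.05 or more. Among all tested genes 68.5% were called, 34.6% higher and 33.9% lower, so that the 21 of 26 collagen genes called (80.8%) stand beside a high share among genes in general. The sizes of the changes were larger, with a median absolute log2 fold change of 1.00 for collagens and 0.30 for all genes. Past a filter on size as well, an absolute log2 fold change of 1 or more, which the study also used, 7 collagen genes were higher and 7 lower, where 5.49% and 3.69% of all genes, 9.19% together, were past it. The 7 higher genes became 4 without WT31_P5IV replicate 3, where Col1a1 (0.97), Col9a1 (0.97) and Col11a2 (just under 1) fell short. The libraries of both groups did not overlap in CPM for 18 of the 26 (69.2%), beside 54.1% of all genes.

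**Figure D1:**
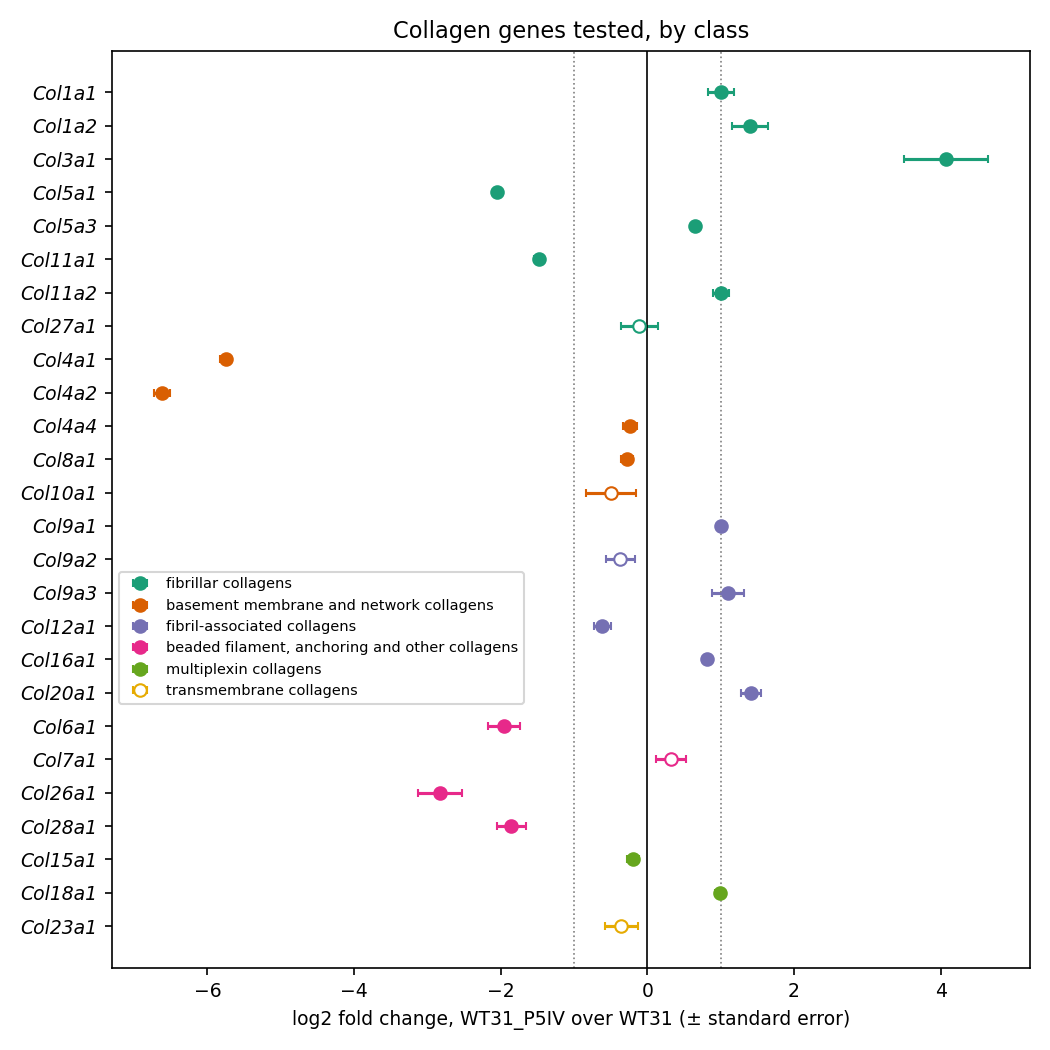
Log2 fold change of WT31_P5IV over WT31 for the 26 collagen genes tested, with its standard error, coloured by class. Filled points have an adjusted p under 0.05 and open points do not, and dotted lines mark log2 fold changes of -1 and 1. Col4a1 and Col4a2 lie far to the left at -5.75 and -6.62, and Col3a1 lies farthest to the right at 4.07.

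By class, 5 of 8 tested fibrillar genes were higher and 2 lower (median log2 fold change 0.82), and 4 of 6 tested fibril-associated genes were higher and 1 lower (median 0.91). Of 5 tested basement membrane and network genes 4 were lower and none was higher (median -0.50). Of 4 tested beaded filament, anchoring and other genes 3 were lower and none was higher (median -1.90). In the order given, 87.5%, 83.3%, 80% and 75% of these classes were called, beside 68.5% of all tested genes, 34.6% higher and 33.9% lower. The median over all 26 was -0.22, and that over all tested genes 0.01. Since a gene can pass the detection filter through the group in which it is high, these counts describe the tested genes only. Of the 26, 18 had at least 10 counts in every library, of which 7 were higher and 8 lower, beside the same 34.6% and 33.9% of all tested genes.

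The main type IV genes fell by more than any other tested collagen gene. Col4a1 encodes the alpha 1 chain, which with the alpha 2 chain from Col4a2 makes the trimer found in nearly all basement membranes. Its estimated counts were 1007, 1076, 1015, 957 and 945 in WT31 replicates 1 to 5 and 19, 18, 14, 17 and 19 in WT31_P5IV. All 5 WT31_P5IV libraries were far under the lowest WT31 library. The level was 39.0 ± 1.44 CPM in the parental line and 0.727 ± 0.0969 CPM in the subline (mean and SD over 5 libraries, as in all values of this form), 53.8-fold lower (log2 fold change -5.75, standard error (SE) 0.076, adjusted p = 2.04e-16 by edgeR's quasi-likelihood test). Col4a2 had 811, 942, 882, 945 and 832 counts in WT31 and 4, 11, 9, 9 and 9 in WT31_P5IV. It too had no overlap between groups, and went from 34.4 ± 2.12 to 0.351 ± 0.111 CPM, 98.3-fold lower (log2 fold change -6.62, SE 0.11, adjusted p = 4.46e-15, same test). For Col4a1 the ratio of counts to TPM, which is scaled to transcript length and library size, a measure of the length of the isoforms to which kallisto assigned the reads, was in WT31_P5IV 0.370 of that in WT31, so that its mean TPM fell from 10.3 to 0.483, a smaller factor than the counts. For Col4a2 the ratio was 0.867.

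The 2 genes stand head to head on chromosome 8 of GRCm38. Col4a1 (ENSMUSG00000031502.11) runs on the minus strand, chr8:11198423-11312826, and Col4a2 (ENSMUSG00000031503.13) on the plus strand, chr8:11312805-11449287, so that their first exons share 22 bases. The shared stretch is printed because both transcripts that fell start in it. It is given on the plus strand from the RefSeq assembly GRCm38.p6, with the GC box GGGCGG, the motif bound by Sp1-type factors, in capitals.
Col4a1 and Col4a2, bases shared by both first exons, chr8:11312805-11312826: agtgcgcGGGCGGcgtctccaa
A GC box on either strand occurs in the 250 bases before the start of 32.7% of 32851 promoters. Those windows differ in length and place from the 22 bases, so that the share gives no expectation for them. Of the 7 tested protein-coding genes within 1000000 bases on either side, the log2 fold changes lay between -1.13 and 0.30. The lowest was Rab20, the next tested gene after Col4a2, and the highest Cars2, so that none of the 7 changed by as much as either collagen gene. The names Rab20 and Cars2 were taken from their values.

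A different pattern was seen for the other type IV chains. Col4a4, the alpha 4 chain found in kidney and inner ear basement membranes together with alpha 3 and alpha 5, had 155, 185, 201, 150 and 177 counts in WT31 and 152, 138, 126, 141 and 133 in WT31_P5IV. The groups overlapped, and the difference was small, 6.77 ± 0.806 and 5.76 ± 0.502 CPM (log2 fold change -0.23, SE 0.093, adjusted p = 0.037 by edgeR's quasi-likelihood test). The call was lost without WT31 replicates 2, 3 or 5 or WT31_P5IV replicates 3 or 5 (adjusted p = 0.0518 to 0.0884), and the adjusted p was 0.0628 with upper quartile scaling. Col4a4 stands head to head with Col4a3 on chromosome 1, with 71 bases between the starts. These bases are shown beside those of Col4a1 and Col4a2 as the second head-to-head pair of the type, again on the plus strand of GRCm38.p6.
Col4a4 and Col4a3, bases between both starts, chr1:82586850-82586920: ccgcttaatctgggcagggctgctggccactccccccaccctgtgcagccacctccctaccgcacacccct
None of the 4 motifs searched is in these 71 bases. Col4a3 itself was not tested, with 1 to 5 counts in WT31 and 1 to 8 in WT31_P5IV. Col4a5 had no count in any WT31 library and 3, 3, 2, 3 and 4 counts in WT31_P5IV. Set against 3 counts over the whole WT31 group, the 15 summed counts were 5.09-fold higher. That value leaves out the counting error of the 15 counts, unlike the exact intervals given for other genes. In a fit of every gene with at least 1 count, Col4a5 was called higher by edgeR's quasi-likelihood test (adjusted p = 0.000523). Col4a6, 1308 bases from Col4a5 in the opposite direction, had at most 2 counts in any library.

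The other network collagens changed little. Col8a1, a chain of the short-chain type VIII network made by endothelium and cornea, had 199 to 257 counts in WT31 and 149 to 196 in WT31_P5IV. In CPM the lowest WT31 library, at 7.80, lay under the 2 highest of the subline, at 7.88 and 8.15. It was lower at 7.36 ± 0.757 CPM beside 8.93 ± 0.829 CPM (log2 fold change -0.28, SE 0.086, adjusted p = 0.00977, edgeR's quasi-likelihood test). Col10a1, the type X chain of hypertrophic cartilage, had 6 to 15 and 3 to 11 counts, a log2 fold change of -0.50 with an SE of 0.34, and an adjusted p of 0.204 in the same test. Its exons overlap those of Nt5dc1 on the opposite strand, and strand use in counting was not given in the sources used here.

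Type I and type III collagen, the fibrillar collagens of skin, tendon and vessel walls, were low in both lines and higher in the subline. Col1a1 had 28, 18, 20, 18 and 27 counts in WT31 and 48, 39, 46, 33 and 42 in WT31_P5IV (0.868 ± 0.20 and 1.73 ± 0.233 CPM). Col1a2, whose product is the second chain of the type I trimer, had 12, 13, 7, 9 and 19 and then 31, 21, 32, 26 and 38 counts (0.469 ± 0.182 and 1.23 ± 0.25 CPM). For both genes every WT31_P5IV library was above every WT31 library. Their log2 fold changes were 1.00 (SE 0.18, adjusted p = 0.000156) and 1.40 (SE 0.25, adjusted p = 0.000149) by edgeR's quasi-likelihood test. On the TPM scale, with 0.1 added before taking logs, they were 0.64 and 0.62. Col3a1, the single chain of type III collagen, had 0, 0, 1, 0 and 3 counts in WT31 and 11, 18, 13, 10 and 11 in WT31_P5IV. In counts every WT31_P5IV library was above every WT31 library, 4 against 63 summed counts and a pooled ratio of 16.03, with an exact 95% interval of 5.96 to 60.7 that covers counting error only. Of the 4 counts in WT31, 3 came from replicate 5. The fitted log2 fold change of 4.07 (adjusted p = 1.74e-05, same test) depends on the prior count, and was 2.44 with a prior count of 2 and 5.74 without WT31 replicate 5 (adjusted p = 2.67e-06). In TPM the groups overlapped, since WT31 replicate 5, at 0.356 TPM, was above 4 of the 5 WT31_P5IV libraries (0.235 to 0.611 TPM). The log2 fold change on log2(TPM + 0.1) was 1.63 (adjusted p = 0.00356 in limma). Exons of Col3a1 overlap those of Gm47302 on the same strand, and 1.12% of its 31-base words are also in other genes. Beside these 3 genes, the 6 tested of the 14 fibroblast and stellate cell markers went both ways. Acta2 (log2 fold change 1.47, adjusted p = 0.000969, same test) and Fbln1 (0.57, adjusted p = 1.45e-08) were higher, Postn (-0.34, adjusted p = 0.00113) and Ngfr (-0.71, adjusted p = 2.07e-07) were lower, and Pdgfra (-0.036) and Pdgfrb (-0.19) had no call. Hand2 was at 0, and Dcn at 1 to 6 counts in WT31 and 1 to 8 in WT31_P5IV. The part of other cells in these counts was not tested.

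Type V collagen, which is built into thin fibrils and helps to start their assembly, had chains that moved in opposite directions. Col5a1 (ENSMUSG00000026837.16, chr2:27886425-28039514, plus strand), whose alpha 1 chain is part of nearly all type V trimers, had 614, 631, 591, 578 and 565 counts in WT31 and 126, 136, 150, 122 and 140 in WT31_P5IV. All 5 libraries of the subline were far under those of the parental line. The level fell from 23.2 ± 0.727 to 5.62 ± 0.380 CPM, 4.14-fold lower (log2 fold change -2.05, SE 0.057, adjusted p = 6.78e-13 by edgeR's quasi-likelihood test). The exons of Col5a1 overlap those of 2810430I11Rik and Gm13372 on the opposite strand, and 2.18% of its 31-base words are also in other genes. Col5a3, the alpha 3 chain, was the collagen gene with the highest TPM in both lines. Its counts were 1766, 1896, 1739, 1813 and 1762 in WT31 and 2569, 2622, 2928, 2424 and 2590 in WT31_P5IV. The groups did not overlap, and the level rose from 70.0 ± 1.46 to 109.5 ± 5.92 CPM (log2 fold change 0.64, SE 0.041, adjusted p = 4.08e-09 in the same test). Per length, Col5a1 was at 7.65 ± 0.810 TPM in WT31 and 1.76 ± 0.191 TPM in WT31_P5IV, and Col5a3 at 17.7 ± 0.643 and 24.6 ± 1.41 TPM. Col5a2, the alpha 2 chain, was under the detection filter, with 2, 2, 2, 0 and 3 counts in WT31 and 8, 7, 5, 5 and 11 in WT31_P5IV. All 5 libraries of the subline were above those of WT31 (pooled ratio 4.07, exact 95% interval 1.92 to 9.61). Fitted together with all genes of at least 1 count, it had a log2 fold change of 2.04 and an adjusted p of 0.00256 in edgeR's test. Col5a2 and Col3a1 are neighbours on chromosome 1, placed tail to tail 24614 bases apart.

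Type XI collagen starts fibril assembly with type V in cartilage and elsewhere. In the main fit it was the one type with tested chains past the filter in opposite directions, Col11a2 only just. The tested type V chains were also called in opposite directions, Col5a1 past the filter and Col5a3 (log2 fold change 0.64) short of it. In the fit of every gene with at least 1 count, Col5a2 was also higher by more than the filter asks, beside the lower Col5a1. Col11a1, its alpha 1 chain, had 1068, 1188, 1087, 1018 and 937 counts in WT31 and 325, 336, 352, 368 and 391 in WT31_P5IV. It was 2.80-fold lower, from 41.3 ± 2.95 to 14.8 ± 1.02 CPM, without overlap (log2 fold change -1.48, SE 0.061, adjusted p = 4.19e-11 by edgeR's quasi-likelihood test). Col11a2, the alpha 2 chain, had 46, 59, 42, 45 and 52 counts in WT31 and 97, 85, 94, 83 and 98 in WT31_P5IV. It was higher, also without overlap, at 1.90 ± 0.238 and 3.81 ± 0.253 CPM (log2 fold change 1.00, SE 0.11, adjusted p = 1.44e-06). Per length, the TPM of Col11a1 was 9.39 to 21.4 times that of Col11a2 in WT31 libraries and 1.30 to 5.24 times in WT31_P5IV. The spread of these values also holds the isoform length that kallisto assigned. For Col11a2 the ratio of counts to TPM, scaled to the median gene of the library, was 1.01 to 2.14 in WT31 and 0.817 to 2.46 in WT31_P5IV. The mean log2 TPM ratio of Col11a1 to Col11a2 was 3.98 ± 0.473 and 1.52 ± 0.729 (two-sided exact permutation test, p = 0.00794, the smallest that 5 against 5 libraries allow). Of 10 pairs of partner chains listed, this was the 1 with at least 10 counts of both chains in every library. The listed type V pair, Col5a1 with Col5a2, missed that minimum through Col5a2. For type IX the list held Col9a2 with Col9a3, which had 9 counts in WT31 replicate 1, and no pair with Col9a1, so that Col9a1 and Col9a2, both above 10 counts throughout, were not compared. Col27a1, a fibrillar chain of cartilage, had 13 to 28 and 10 to 23 counts, with no call (log2 fold change -0.11, SE 0.25, adjusted p = 0.713).

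**Figure D2:**
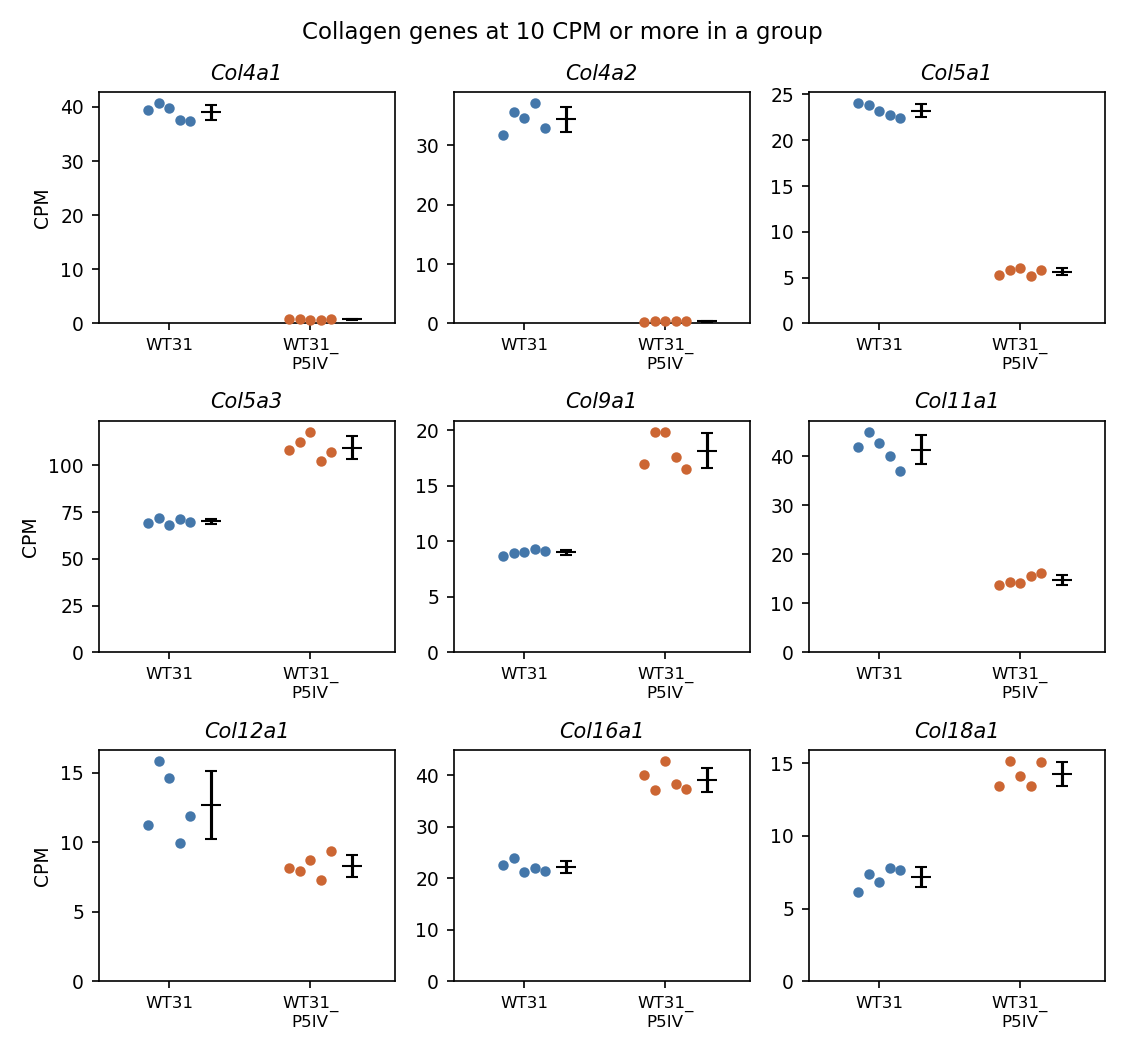
CPM of the 9 collagen genes with a group mean of at least 10 CPM, 1 point a library, with the mean and SD beside the 5 libraries of each group and every axis starting at 0. Col4a1, Col4a2, Col5a1, Col11a1 and Col12a1 fall in WT31_P5IV, to 0.727, 0.351, 5.62, 14.8 and 8.31 CPM, the other 4 rise, and in all 9 panels the groups do not overlap.

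The tested fibril-associated collagens, which carry an interrupted helix and bind the surface of fibrils, were mostly higher in the subline. Col16a1, the type XVI chain of skin and cartilage, had 576, 632, 540, 561 and 538 counts in WT31 and 949, 866, 1062, 907 and 905 in WT31_P5IV. No WT31 library reached the lowest library of the subline, and the level went from 22.2 ± 1.11 to 39.1 ± 2.31 CPM (log2 fold change 0.82, SE 0.051, adjusted p = 3.43e-09 by edgeR's quasi-likelihood test). Col9a1, a chain of type IX collagen that coats cartilage fibrils, had 221, 236, 231, 236 and 231 counts in WT31 and 404, 463, 493, 417 and 401 in WT31_P5IV. Its level went from 9.02 ± 0.234 to 18.2 ± 1.58 CPM without overlap (log2 fold change 1.01, SE 0.064, adjusted p = 3.98e-09). Col9a3, another type IX chain, had 9, 18, 24, 26 and 23 counts and then 37, 34, 41, 43 and 46, a log2 fold change of 1.10 (SE 0.22, adjusted p = 0.00039). Part of its sequence, 5.35% of its 31-base words, is also in other genes, mostly in Tcfl5, whose exons overlap it on the opposite strand. Col9a2, the remaining type IX chain, was at 1.16 ± 0.236 and 0.90 ± 0.193 CPM, with a log2 fold change of -0.37 (SE 0.20) and no call (adjusted p = 0.107), although it was called lower without WT31_P5IV replicate 1 (adjusted p = 0.0487).

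Col20a1 and Col12a1 went in opposite directions. Col20a1, a little studied fibril-associated chain, had 30, 37, 34, 34 and 40 counts in WT31 and 104, 69, 91, 77 and 95 in WT31_P5IV (log2 fold change 1.41, SE 0.14, adjusted p = 3.41e-07 by edgeR's quasi-likelihood test). Its exons overlap those of BX649560.1 on the same strand. Col12a1, which binds type I fibrils in dense connective tissue and muscle, had 287, 419, 373, 253 and 300 counts in WT31 and 194, 185, 218, 174 and 227 in WT31_P5IV. It was lower (12.7 ± 2.45 and 8.31 ± 0.786 CPM, log2 fold change -0.61, SE 0.12, adjusted p = 0.000304), with a wide spread in WT31 and yet no overlap.

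Among the beaded filament, anchoring and other collagens, each of the 3 called genes was lower by more than 3-fold. Col6a1, the alpha 1 chain of the type VI microfibrils around cells, had 36, 52, 49, 35 and 48 counts in WT31 and 14, 14, 9, 9 and 7 in WT31_P5IV (log2 fold change -1.96, SE 0.22, adjusted p = 1.59e-06 by edgeR's quasi-likelihood test). Its usual partners were at the edge of detection, Col6a2 with at most 2 counts and Col6a3 with 2 to 5 counts in WT31 and 2 to 4 in WT31_P5IV. Col28a1, a type VI-like chain found around Schwann cells, had 68, 64, 60, 54 and 40 counts and then 17, 14, 10, 17 and 16 (log2 fold change -1.85, SE 0.19, adjusted p = 7.62e-07). Col26a1, a short collagen first seen in gonads, had 16, 19, 21, 17 and 18 counts and then 1, 3, 2, 2 and 4 (log2 fold change -2.83, SE 0.30, adjusted p = 8.29e-07). None of these 3 genes overlapped between groups. Col7a1, which makes the anchoring fibrils under the epidermis, had 15 to 24 and 16 to 29 counts and no call (log2 fold change 0.32, SE 0.21, adjusted p = 0.178), and its exons overlap Mir711 on the same strand. Once transcript length was taken into account, it was called higher, with adjusted p-values of 0.0248 to 0.0299 in edgeR with a length offset and in limma on TPM.

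The multiplexins, basement membrane collagens whose C-terminal fragments can be released, were split. Col18a1, the source of endostatin, had 156, 195, 174, 198 and 194 counts in WT31 and 319, 353, 351, 319 and 365 in WT31_P5IV. It was higher without overlap, with a log2 fold change of 0.99 (SE 0.072, adjusted p = 1.79e-08 by edgeR's quasi-likelihood test), and was therefore just short of the filter. Col15a1 had 173 to 217 counts in WT31 and 146 to 164 in WT31_P5IV (7.47 ± 0.708 and 6.52 ± 0.391 CPM, which overlap). Its log2 fold change was -0.20 (SE 0.078, adjusted p = 0.0365), and its exons overlap those of Gm12426 on the opposite strand. That call was lost without WT31 replicates 4 or 5 or WT31_P5IV replicates 3 or 5 (adjusted p = 0.0524 to 0.0860), and in DESeq2, with upper quartile scaling and with the length offset (0.0545 to 0.0786). Of the transmembrane collagens, Col23a1 was at 13 to 22 counts in WT31 and 9 to 16 in WT31_P5IV, with no call (log2 fold change -0.36, SE 0.22, adjusted p = 0.170), and Col17a1, the hemidesmosome collagen of keratinocytes, had at most 1 count in any library. Col25a1, a transmembrane collagen made mainly by neurons, was under the detection filter, with 1, 2, 0, 3 and 2 counts in WT31 and 9, 11, 15, 18 and 19 in WT31_P5IV. Every WT31_P5IV library was above every WT31 library, with 8 against 72 summed counts (pooled ratio 9.16, exact 95% interval 4.41 to 22.0 for counting error only). Fitted with all genes of at least 1 count, Col25a1 had a log2 fold change of 3.21 and an adjusted p of 2.06e-07 in edgeR's test. Col13a1, the transmembrane collagen of the neuromuscular junction, was at 0 in every library, which allows up to 3 counts in each.

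The 18 members that were not tested all had 19 counts or fewer in every library. Apart from Col4a3, Col4a5, Col5a2, Col6a3 and Col25a1, those above 3 counts in some library were Col14a1 (4 to 12 counts in WT31, 4 to 7 in WT31_P5IV) and Col22a1 (3 to 8 and 2 to 5), both fibril-associated chains whose groups overlapped. A further 11 members stayed at 3 counts or fewer throughout, among them Col2a1, the main collagen of cartilage, and Col6a5 and Col13a1 were the 2 at 0 in every library. In the fit of every gene with at least 1 count, Col4a5, Col5a2 and Col25a1 were the members under the filter that were called, all higher.

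TPM, which is per length and can be set against each other between genes, gave the make-up of the collagen mRNA. The summed TPM of the 44 genes was 98.3 ± 3.62 in WT31 and 83.3 ± 4.04 in WT31_P5IV, ranges of 92.8 to 101.4 and 77.9 to 88.8 that do not overlap (two-sided exact permutation test, p = 0.00794, the smallest possible). The composition differed as well. Type IV made up 19.9% ± 1.13 of the collagen TPM in WT31 and 1.75% ± 0.266 in WT31_P5IV, and type XI 14.7% ± 1.13 and 7.39% ± 0.553. Type XVI went from 12.3% ± 0.930 to 23.1% ± 2.89, type IX from 6.27% ± 0.346 to 12.6% ± 0.867 and type XVIII from 4.97% ± 0.482 to 8.26% ± 1.11. Type V had the largest share in both lines, 25.9% ± 1.12 and 31.8% ± 1.46. Its summed TPM, 25.4 ± 0.494 and 26.4 ± 1.39, overlapped between the groups, with Col5a1 lower and Col5a3 higher. For each of these 6 types the shares did not overlap (two-sided exact permutation test, p = 0.00794, adjusted p = 0.00926 over the 7 types with at least 5% in some library). Type XV, the 7th, was at 5.85% ± 0.960 and 4.85% ± 1.42 and overlapped (exact permutation test, p = 0.254). Shares add up to a whole, so that a fall of one type raises the others.

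**Figure D3:**
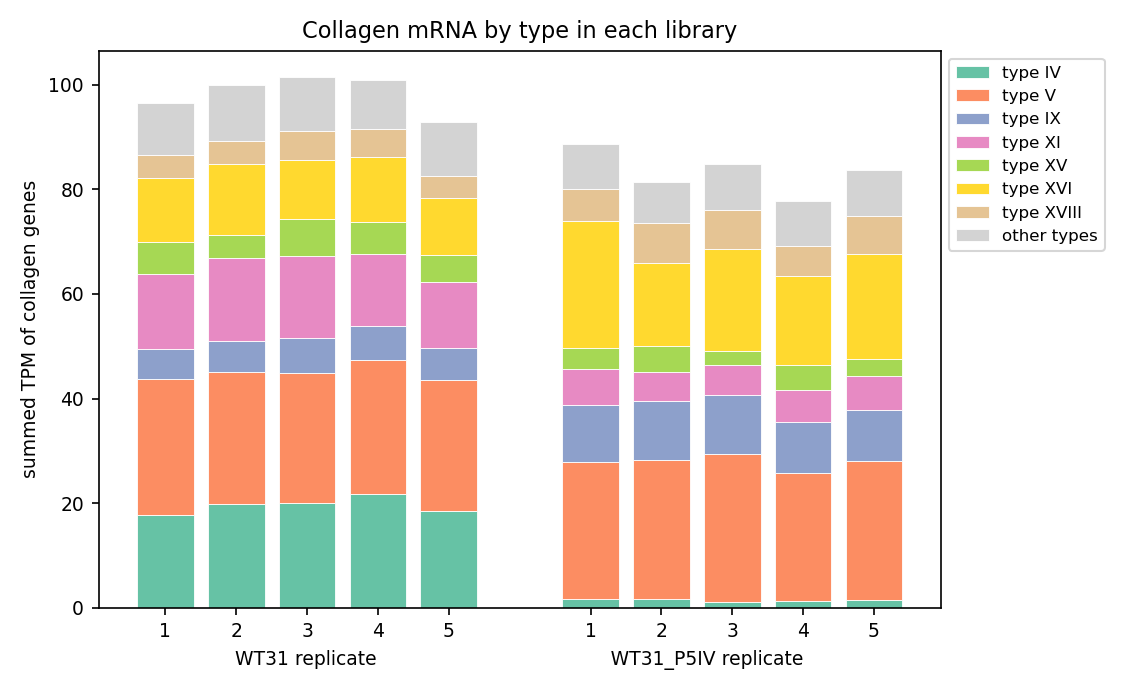
Summed TPM of the collagen genes in each library, stacked by collagen type, with types under 5% in every library drawn together as other types. The bars end between 77.9 and 101.4 TPM, and the type IV block at the bottom of each bar shrinks from 19.9% of the sum in WT31 to 1.75% in WT31_P5IV.

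In the order of single chains by mean TPM, Col5a3 was first in both lines (17.7 ± 0.643 and 24.6 ± 1.41 TPM). Col11a1 followed in WT31 at 13.5 ± 1.13 TPM, with Col16a1 (12.1 ± 1.02), Col4a1 (10.3 ± 1.14), Col4a2 (8.22 ± 0.589) and Col5a1 (7.65 ± 0.810) after it. Neighbours from Col11a1 to Col5a1 differed by less than 2 of the larger SD. In WT31_P5IV the order after Col5a3 was Col16a1 (19.3 ± 3.26), Col9a1 (8.46 ± 0.635), Col18a1 (6.87 ± 0.912) and Col11a1 (4.47 ± 0.348), with Col5a1 at rank 8 and Col4a1 and Col4a2 at ranks 16 and 28.

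The 250 bases before the start are printed for Col11a1, Col5a1, Col5a3 and Col16a1, the abundant chains of fibrils and their surface that changed in opposite directions, with matches of the searched motifs in capitals. Sequences are RefSeq promoter windows of GRCm38.p6, on the strand of the gene.
Col11a1, chr3:114030290-114030539, plus strand: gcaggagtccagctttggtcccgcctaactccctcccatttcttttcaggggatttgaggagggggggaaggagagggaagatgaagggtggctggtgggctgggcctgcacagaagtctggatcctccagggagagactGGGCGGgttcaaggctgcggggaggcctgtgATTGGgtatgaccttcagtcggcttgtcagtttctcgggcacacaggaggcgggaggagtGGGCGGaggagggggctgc
Col5a1, chr2:27886175-27886424, plus strand: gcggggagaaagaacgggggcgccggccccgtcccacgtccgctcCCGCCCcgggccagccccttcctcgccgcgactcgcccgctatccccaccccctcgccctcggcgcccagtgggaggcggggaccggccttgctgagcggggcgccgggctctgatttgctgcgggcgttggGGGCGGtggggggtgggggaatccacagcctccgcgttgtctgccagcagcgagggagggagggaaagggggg
Col5a3, chr9:20815068-20815317, minus strand: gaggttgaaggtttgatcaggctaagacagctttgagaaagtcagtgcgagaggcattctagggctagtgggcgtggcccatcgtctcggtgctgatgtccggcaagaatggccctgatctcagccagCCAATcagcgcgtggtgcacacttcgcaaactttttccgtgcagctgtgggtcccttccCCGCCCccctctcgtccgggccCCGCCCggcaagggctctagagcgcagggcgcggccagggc
Col16a1, chr4:130047590-130047839, plus strand: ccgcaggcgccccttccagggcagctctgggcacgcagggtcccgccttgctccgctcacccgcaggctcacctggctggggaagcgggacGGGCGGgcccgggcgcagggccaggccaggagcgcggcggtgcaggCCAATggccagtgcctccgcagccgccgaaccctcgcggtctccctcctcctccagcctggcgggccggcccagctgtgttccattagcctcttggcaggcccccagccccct
Both strands were searched. The GC box was read as GGGCGG. The CCAAT box, bound by NF-Y, is named by its letters. The TATA box was read as TATAAA. The AP-1 site, bound by Fos and Jun proteins, was read as TGANTCA. No match overlapped another. Col11a1, which was lower, has 2 GC boxes, the nearer one 14 bases before the start, and 1 CCAAT box on the opposite strand. Col5a1, also lower, has 2 GC boxes, 1 on each strand, the nearer one 68 bases before the start, and no match of the other 3 motifs. Col5a3, which was higher, has 2 GC boxes on the opposite strand, the nearer one 36 bases before the start, and 1 CCAAT box. Col16a1, also higher, has 1 GC box at 154 bases and 1 CCAAT box, and an exon of the antisense gene Gm12963 lies in its window. Over the 24 promoter entries of 22 tested collagen genes, 13 held a GC box, 9 a CCAAT box, 3 a TATA box and 1 an AP-1 site, beside 32.7%, 33.8%, 12.4% and 6.75% of the 32851 promoters. GC boxes stand in the windows of genes that rose and of genes that fell.

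Genes that modify, cut, bind or degrade collagen were examined from 4 lists, whose counts stand beside the 68.5% of all tested genes that were called, 34.6% higher and 33.9% lower. Of 27 genes for collagen hydroxylation, folding and export, 24 were tested, and 14 were higher and 6 lower (83.3% called, median log2 fold change 0.33). The highest were P3h3, a prolyl 3-hydroxylase (39.2 ± 2.12 and 87.4 ± 2.31 CPM, log2 fold change 1.16), and Colgalt1, which adds galactose to hydroxylysine (95.9 ± 5.45 and 185.5 ± 10.7 CPM, 0.95). P4ha2, a catalytic subunit of prolyl 4-hydroxylase, and Plod3, a lysyl hydroxylase, had log2 fold changes of 0.91 and 0.86. The lowest were Sec23a, a coat protein of the vesicles that leave the endoplasmic reticulum (-0.67), Tango2 (-0.59), and the prolyl isomerases Fkbp10 (-0.27) and Fkbp7 (-0.26). Adjusted p-values of these 8 genes were 0.00638 or lower by edgeR's quasi-likelihood test. Exons of Colgalt1, Plod3, Sec23a and Fkbp10 overlap those of other genes, as do those of Pcolce, Nid1, Itga10, Mmp11 and Timp4 in the lists that follow.

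Of 25 genes for procollagen cleavage and cross-linking, 12 were tested, 7 of them higher and 4 lower (91.7% called, beside 68.5% of all genes, median log2 fold change 0.42). The small proteoglycan Bgn, which binds fibrils, rose from 0.803 ± 0.208 to 3.60 ± 0.748 CPM (log2 fold change 2.16), the lysyl oxidase Loxl4 had a log2 fold change of 1.61 and the fibril-binding Fmod one of 1.03. Pxdn, peroxidasin, which cross-links type IV collagen, went up from 182.9 ± 14.1 to 324.4 ± 21.6 CPM (0.83) while its substrate chains Col4a1 and Col4a2 fell. Tll1, a protease that removes C-propeptides, fell from 3.05 ± 0.384 to 0.624 ± 0.131 CPM (-2.29), and Pcolce, which enhances that cleavage, from 10.2 ± 0.677 to 4.07 ± 0.398 CPM (-1.32). Sparc, a collagen-binding protein, was at 3096 ± 124.9 and 1960.4 ± 111.6 CPM (-0.66), and Nid1, which links type IV collagen to laminin, had a log2 fold change of -0.44. All 8 had adjusted p-values of 0.000266 or lower in the same test.

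Of 14 collagen receptors, 11 were tested, 8 higher and 1 lower (81.8% called, beside 68.5% of all genes, median log2 fold change 0.48). Itga10 (0.99) and Itga2 (0.55) encode collagen-binding integrin chains, Itga3 (0.61) a chain that binds mainly laminin, and Cd44 (0.56) a hyaluronan receptor that also binds collagen. Of the words of Itga10, 31.8% are shared with other genes. The gene that fell was Mrc2, an uptake receptor for collagen fragments (0.560 ± 0.134 and 0.201 ± 0.0775 CPM, -1.49). With 3 to 7 counts in WT31_P5IV it was not tested under a minimum of 10 counts in every library, it had no call in limma on log2(TPM + 1), and 2 receptors were lower without WT31 replicate 5. Of 24 genes of collagen degradation, 14 were tested, 12 higher and 1 lower (92.9% called, beside 68.5% of all genes, median log2 fold change 0.36). Mmp11 (2.94 ± 0.376 and 8.41 ± 0.499 CPM, 1.51) and Mmp17 (0.61) are metalloproteinases, whereas Timp4 (1.51) and Timp1 (1.02) are inhibitors of such enzymes, so that the list's higher genes include both. Ctsk, the protease cathepsin K, was lower (-0.70). Adjusted p-values of the named receptor and degradation genes were at most 0.000696 by edgeR's quasi-likelihood test.

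**Figure D4:**
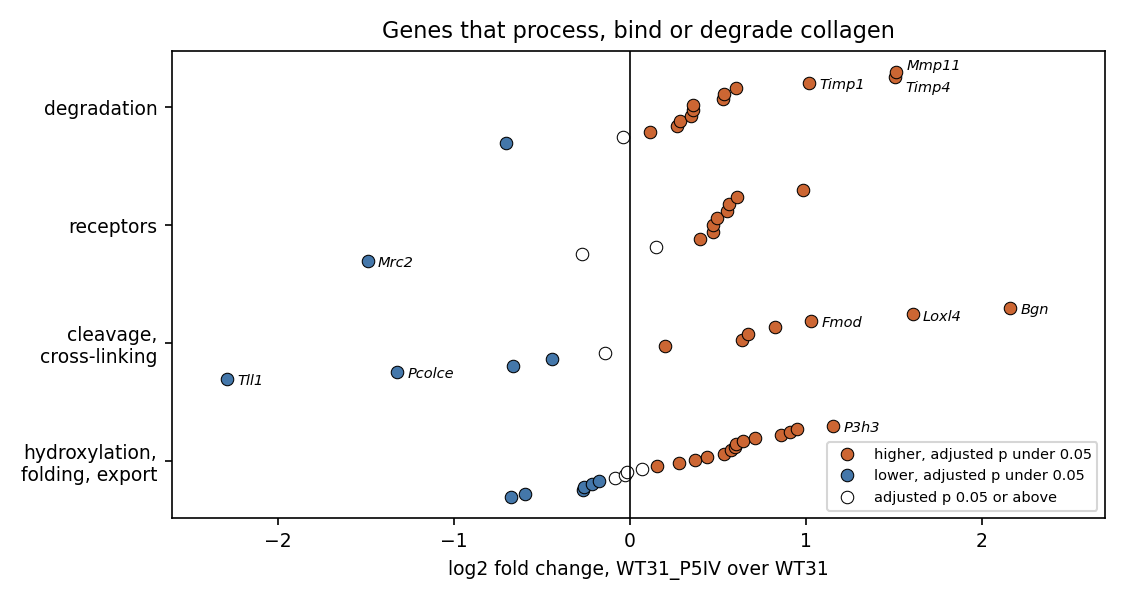
Log2 fold change of WT31_P5IV over WT31 for each tested gene of 4 collagen pathway lists, 1 point a gene, with names given at an absolute value of 1 or more. Orange points are higher and blue points lower at an adjusted p under 0.05, and white points had no call. Points of all 4 lists lie mostly right of 0, from Tll1 at -2.29 to Bgn at 2.16.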

How the data were processed

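The tables held estimated counts and TPM per gene for 10 RNA-seq libraries (5 of WT31, 5 of WT31_P5IV). Per the labels and the methods, the authors trimmed reads with Trim Galore 0.6.4 and made the deposited estimated counts with kallisto (version 0.4.6 in the submitters' processing notes) on GRCm38.p6. The deposited TPM values, scaled by the authors to transcript length and library size, came with them. Strand use and annotation release were not given in the sources used here, and symbols, positions and transcripts were taken from GENCODE M21 by gene identifier (55144 of 55385 matched, 657 of them, with Col5a1, Col13a1 and Col25a1 among the members, only without the version number, so that their gene models may differ slightly from those counted). The labels' titles set each library's replicate number, and the deposited files give other numbers in their names to WT31 replicates 3, 4 and 5.

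Estimated counts were rounded. edgeR 4.0.16 (filterByExpr, TMM, quasi-likelihood test, Benjamini-Hochberg over 13620 genes of 31234 with a count) was the main test, in R 4.3.3. CPM used TMM-scaled library sizes. Sums, shares and ratios of TPM were compared by two-sided exact permutation tests over libraries (scipy 1.17.1). Alternatives were DESeq2 1.42.0, limma 3.58.1 with voom or on log2(TPM + 0.1) or log2(TPM + 1), upper quartile scaling, other filters, a replicate block, a length offset, a prior count of 2, glmTreat, and each library left out. On data simulated for this comparison over 13620 genes with 200 changed, edgeR found 85.2% of the log2 fold changes of 1 and 100% of those of 2, with 13 false calls. In the real data 9327 genes were called, far more than the 200 simulated, so that these rates need not carry over. All 44 members are accounted for. Of the pathway lists, up to 4 called genes per list and direction with the largest absolute log2 fold change are named. Members and lists were chosen with earlier results of these data known. Genes whose transcripts share 31-base words or exons with others are uncertain. Counting intervals cover counting error only.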

Additional observations from a re-analysis of the deposited data

Results flagged for a closer look

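Of 70 sets of 5 libraries examined (the CPM of each tested collagen gene and the composition values, in each group), 1 had a library set apart from the others by its gap, where chance gives about 5% of sets. It was Col3a1 in WT31_P5IV, where replicate 2 was highest at 0.772 CPM, 18 estimated counts, and the next library was at 0.523 CPM.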

How the results depend on the processing

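The fixed alternatives kept the direction and side of the threshold in 503 of 538 values of single collagen genes, with 26 calls lost, 4 gained and 5 directions turned. glmTreat, which asks for more than a fold change of 2 and so calls fewer genes by construction, called 608 genes, among them 2 collagen genes higher and 7 lower, 1 and 0 of the hydroxylation, folding and export list, 1 and 2 of cleavage and cross-linking, 0 and 0 of the receptors, and 1 and 0 of degradation. Genes past the filter, 1251 in all, were 2513 with limma voom without scaling or filter, where the test, the scaling and the genes tested all differ. They were 2332 with every gene of at least 1 count, which tests more genes, and 701 with at least 10 counts in every library, which tests fewer. In limma on log2(TPM + 1) they were 465. The 7 collagen genes higher past the filter were 4 with at least 10 counts in every library, which drops Col1a2, Col3a1 and Col9a3 by construction, 2 with the length offset, 2 on log2(TPM + 0.1) and 0 on log2(TPM + 1), and 4 to 9 with each library left out, where Col25a1 passed the detection filter in 6 of the 10 fits. The 7 lower were 4 with at least 10 counts in every library, which drops Col4a2, Col6a1 and Col26a1 by construction, and 4 on log2(TPM + 1). Receptors lower were 0 with at least 10 counts in every library, which leaves out Mrc2 by construction, 0 on log2(TPM + 1), and 1 to 2 with each library left out. Degradation genes lower were 2 with limma voom and 2 with every gene of at least 1 count, where Mmp9 was tested as well. Both TPM scales moved the median of all genes, by -0.17 and -0.16 log2. Directions turned for Col23a1 (0.025 with the length offset, 0.0051 on log2(TPM + 0.1) and 0.013 on log2(TPM + 1)) and for Col27a1 without WT31 replicate 2 or WT31_P5IV replicate 5 (-0.27 to 0.040 with each library left out), neither of which was called. The fall of the type XV share turned to 0.101 percentage points higher when CPM replaced TPM (p = 0.516 by exact permutation test), and neither was past the threshold. Where no construction is named, the cause was not tested.

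Same-numbered libraries did not deviate together (correlations of -0.0957 to 0.258, 2 of 5 WT31 libraries closest to their own number), so the numbers were not taken as pairs. These are the numbers in the titles, from which the names of the deposited files differ for WT31 replicates 3, 4 and 5, and the numbers in those names were not tested. With a replicate block the call of Col4a4 was lost (log2 fold change -0.23, adjusted p = 0.0657 in edgeR), no other tested collagen gene changed its call, and 9380 genes were called.

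Members with under 10 counts in the libraries of a group, such as Col3a1 in WT31, rest on few reads. For the 18 untested members the only limit used was a fixed floor in counts, as for Col4a5 in WT31 and Col13a1. No limit of detection specific to each gene was computed.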
